A study of Homo sapiens with 8 samples.

Results

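The genes described here are 8 annexins (ANXA1, ANXA2, ANXA3, ANXA4, ANXA5, ANXA6, ANXA7 and ANXA11) and S100A10 and S100A11, the S100 partners of ANXA2 and ANXA1. They were taken by gene name from a combined long-read transcript assembly, keeping the transcripts that the assembly itself assigns to the gene, and they are 10 of the 29838 genes and loci with reads. The assembly holds 27 transcripts of these genes, with 12355 of 5436129 reads. All 10 genes passed the filter on low counts, ANXA1 only through its reads in mesoderm.

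Polyadenylated RNA from H1, an established line of human embryonic stem cells, was sequenced with the PacBio long-read method (Sequel II instrument). There were 4 groups of 2 repeats each. Undifferentiated cells (hPSC) grew in mTeSR1 on Matrigel, and the 3 germ layers were collected after 5 days. Ectoderm medium held knockout serum replacement and the inhibitors A83-01, PNU-74654 and Dorsomorphin. Endoderm medium held serum, WNT3A and Activin A. Mesoderm medium held serum, bFGF, VEGF and BMP4, and Activin A was present on the opening day only. All libraries came from this 1 cell line, and no genotype or further treatment is given for any group. The labels do not state that the repeats were separate cultures, so p-values measure only the spread between these samples. In bulk RNA, fewer cells of a type and less RNA per cell cannot be told apart.

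Annexins are cytosolic proteins that bind acidic phospholipids of membranes when calcium rises, through a conserved core of repeated domains. Their N-terminal tails differ and carry the sites for partners, among them dimers of the small calcium-binding S100 proteins, which can hold annexin molecules on opposing membranes together. The family is known for roles in membrane repair, endocytosis and exocytosis, the cortical actin skeleton and the binding of plasminogen at the cell surface. S100A10 is unusual among S100 proteins in that it binds its annexin without calcium, and it is known to be unstable in cells that lack ANXA2.

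Levels are given in CPM, the reads of a gene per 1000000 reads of the library, and libraries are named in the order repeat 1, repeat 2. Depth was 503840 to 1180888 reads, and a count of 0 allowed up to 3 reads, which is 2.54 to 5.95 CPM. That limit and the intervals below cover counting error only. Endoderm markers summed to 4151 to 4317 CPM in endoderm and to 15.1 CPM or less elsewhere. Ectoderm markers were highest in ectoderm (794 to 1009 CPM), although SOX1 and FEZF2 had 0 reads there. The ectoderm list also reached 416 to 422 CPM in endoderm, where OTX2 had 241 and 238 reads. Pluripotency markers were highest in hPSC (3763 to 3915 CPM) but did not vanish from the layers. Their sum was 1820 to 2119 CPM for endoderm, 1385 to 1844 CPM for ectoderm, and 422 to 423 CPM for mesoderm. The listed genes did not move together in ectoderm. LIN28A had 1038 and 1238 reads there against 421 and 344 in hPSC, and SOX2 had 180 and 129 against 71 and 5. The ectoderm libraries were deeper. POU5F1 (5 and 16 reads), NANOG (3 and 0) and TDGF1 (2 and 1) had few reads in ectoderm. In hPSC they had 372 and 352, 79 and 129, and 524 and 626. The source of the reads in the layers was not tested. In mesoderm the listed mesoderm markers summed to 1071 and 1179 CPM, with 0 reads for MESP1, MIXL1 and FOXF1. All 10 listed amnion and trophoblast markers had reads in both mesoderm libraries, and the list summed there to 7285 and 7987 CPM against 114 CPM or less elsewhere. Mesenchymal markers summed to 5779 and 6419 CPM there against 368 to 1107 CPM elsewhere. Within that list THY1 had 205 and 377 reads in hPSC and 26 and 18 in mesoderm. TAGLN had 261 and 191 reads in endoderm and 81 and 76 in mesoderm. POSTN had 0 and 3 reads in mesoderm, and DCN had 12 and 7. The sums of the amnion and trophoblast list and of the mesenchymal list were highest in the mesoderm libraries. Their part in the values of the genes described below as higher in mesoderm was not tested. Some of those genes were higher in another layer than in mesoderm, among them S100A16 and EHD2 in endoderm. Ectoderm libraries held reads from longer transcripts, with a mean of 4406 and 4650 nt against 2975 to 3840 nt in the other 6 libraries.

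The 10 genes together took few reads in pluripotent cells and in ectoderm, and several times more in endoderm and mesoderm. Their summed share of all reads was 0.114% and 0.144% in hPSC and 0.0669% and 0.0524% in ectoderm. It was 0.457% and 0.420% in endoderm and 0.432% and 0.441% in mesoderm. The 4 ranges did not overlap except that endoderm and mesoderm shared theirs.

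The edgeR quasi-likelihood test was used with Benjamini-Hochberg adjustment over 10843 genes. Against hPSC it called 7 of the 10 genes in ectoderm, 6 in endoderm and 7 in mesoderm, and the layers differed in the direction of these calls. In ectoderm 6 of the 10 genes were lower, 1 was higher and 3 were not called, where 48.7% of all genes tested were called and 24.8% were called lower. In endoderm 6 were higher, 0 lower and 4 not called, where 27.2% of all genes were called and 13.4% called higher. In mesoderm 6 were higher, 1 lower and 3 not called, where 35.1% of all genes were called and 16.9% called higher. The median log2 fold change of the 10 genes was -1.47 in ectoderm, 1.57 in endoderm and 1.68 in mesoderm, and that of all genes tested was -0.01, -0.13 and 0.01. ANXA1 is among the 6 higher in mesoderm and passed the filter only through that group, so its call there adds no support, and 5 of the other 9 genes were higher. With a correction for transcript length the ectoderm median was -0.47 and 4 of the 10 genes were called. Under that correction the median of all genes was -0.09 and 3858 of 10843 were called. These 3 comparisons share the hPSC libraries.

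Fold changes were fitted after TMM scaling, whose factors were 1.06 and 0.844 in hPSC, 1.27 in both ectoderm libraries, 0.773 and 0.726 in endoderm and 1.11 and 1.12 in mesoderm. CPM are scaled by library totals alone, so a fitted difference, mainly one with endoderm, can lie on the other side of 0 from the order of the CPM. With library totals in place of TMM, a setting added after the data were seen, 6, 6 and 7 of the 10 genes were called for ectoderm, endoderm and mesoderm against hPSC. Of all 10843 genes tested, 5337, 3188 and 3670 were called in these comparisons. The median of all genes was then 0.39, -0.46 and 0.24, and 66.5%, 31.7% and 59.1% of the genes called were higher, where TMM gave 49.0%, 49.3% and 48.0%. For ectoderm against endoderm, ectoderm against mesoderm and endoderm against mesoderm the medians were 0.94, 0.21 and -0.72, and 71.7%, 62.3% and 28.1% of the genes called were higher, where TMM gave 52.5%, 51.1% and 49.3%.

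**Figure D1:**
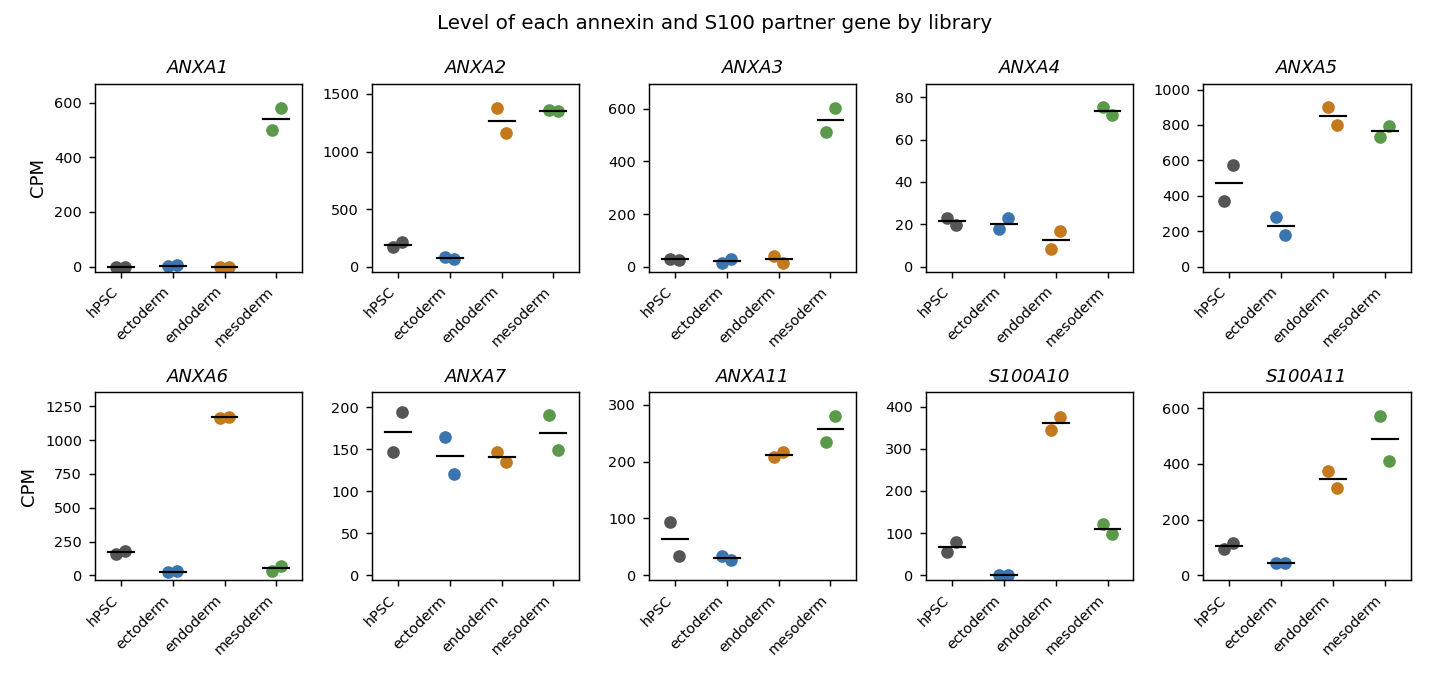
Level in CPM (vertical axis, its own scale for each gene) of the 10 genes in each library, as points by group, with the group mean as a bar. ANXA1, ANXA3 and ANXA4 are highest in both mesoderm libraries, ANXA6 and S100A10 in both endoderm libraries, and ANXA7 has similar levels in all 4 groups.

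The layers also differed from one another. Between ectoderm and endoderm 7 of the 10 genes were lower in ectoderm and 0 were higher, where 63.0% of all genes were called, 29.9% called lower and 33.1% called higher. Between ectoderm and mesoderm 9 were lower in ectoderm and 0 were higher, where 35.5% of all genes were called and 17.3% called lower. ANXA7 was the gene not called. With library totals 8 were called, without ANXA6, where 3822 of all 10843 genes were called. Between endoderm and mesoderm 2 were higher in endoderm (ANXA6 and S100A10), 3 were lower (ANXA1, ANXA3 and ANXA4) and 5 were not called. Of all genes tested, 47.1% were called, 23.2% higher and 23.9% lower. The counts of the 10 genes in this comparison are near those shares. The calls of ANXA1 against mesoderm again add no support.

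**Figure D2:**
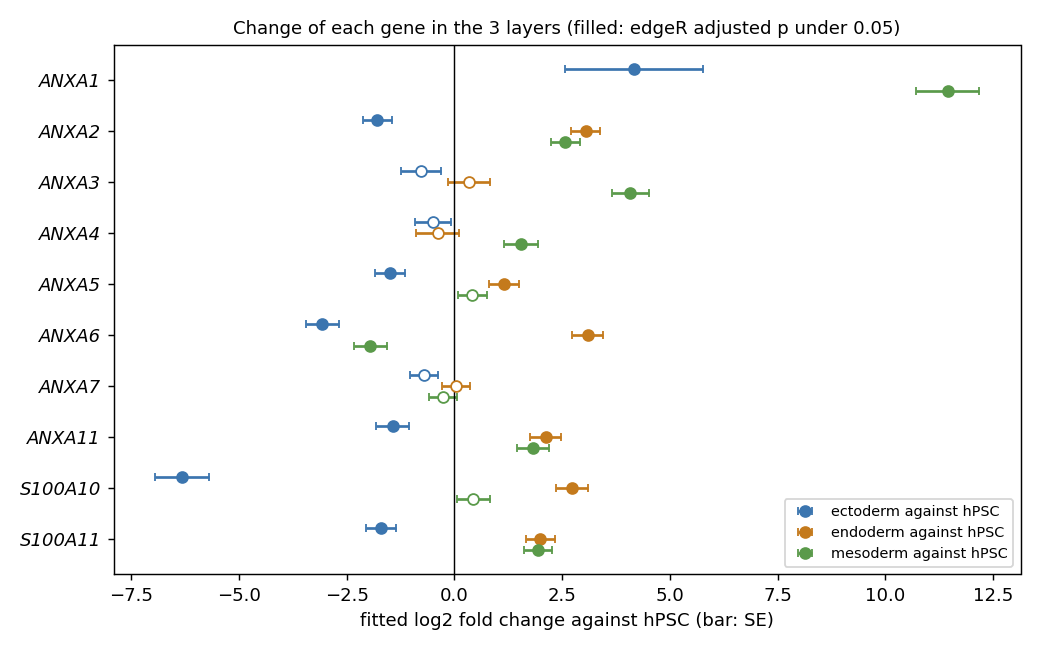
Fitted log2 fold change of each gene against hPSC (horizontal axis, bars are the SE) in ectoderm, endoderm and mesoderm, filled where the edgeR adjusted p is under 0.05. The filled ectoderm points lie left of 0 except that of ANXA1, the filled endoderm points lie right of 0, and ANXA6 is the filled mesoderm point left of 0; fitted values of ANXA1 are against 0 reads and are not bounds.

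ANXA2 and S100A10 form a heterotetramer, 2 annexin molecules around an S100A10 dimer, on the inner face of the plasma membrane. The tail of ANXA2 that S100A10 binds is encoded at the start of its reading frame, and the corresponding stretch of ANXA1, the partner of S100A11, is printed with it because these are the parts by which the annexins take different S100 proteins. The sequences are from GENCODE 29 on GRCh38, with the start codon in capitals.
ANXA2 coding start: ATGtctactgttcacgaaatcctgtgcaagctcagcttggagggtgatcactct
ANXA1 coding start: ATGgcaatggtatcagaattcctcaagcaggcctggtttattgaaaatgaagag
The start codon of ANXA2 lies at chr15:60386073-60386075 on the minus strand, and that of ANXA1 at chr9:73158536-73158538 on the plus strand.

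ANXA2 (ENSG00000182718.18, chr15:60347130-60398077) was at 168 and 212 CPM in hPSC, at 81.3 and 68.2 in ectoderm, at 1379.9 and 1158 in endoderm and at 1358 and 1354 in mesoderm. Both ectoderm libraries were the lowest, the hPSC libraries came next, and endoderm and mesoderm overlapped far above them. Against hPSC it fell by 1.79 ± 0.33 (SE) on the log2 scale in ectoderm (adjusted p = 0.000546) and rose by 3.05 ± 0.33 in endoderm (1.01e-05) and 2.58 ± 0.33 in mesoderm (2.82e-05). Endoderm and mesoderm were not called different (0.47 ± 0.30 for endoderm against mesoderm, adjusted p = 0.212). That difference was called without hPSC repeat 1 (0.49, adjusted p = 0.0469) or repeat 2 (0.48, 0.0471), but its sign is opposite to that of the mean CPM, which was higher in mesoderm, and it was -0.10 with library totals and -0.02 with the length correction. With the correction for transcript length the ectoderm difference from hPSC was -0.73 and was no longer called (adjusted p = 0.0682).

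S100A10 (ENSG00000197747.9, chr1:151982903-151993859, minus strand) had 29 and 44 reads in hPSC, 2 and 0 in ectoderm, 64 and 49 in mesoderm and 202 and 220 in endoderm. In CPM the hPSC libraries were at 55.8 and 78.3, those of ectoderm at 1.69 and 0, those of mesoderm at 121 and 97.3 and those of endoderm at 345 and 375. Ectoderm was almost without reads although its libraries were the deepest, endoderm was highest, and none of the 4 groups overlapped. The ectoderm level was 72.5-fold below hPSC, with a 95% exact interval of 19.4 to 610.0, from 2 against 73 reads (edgeR adjusted p = 2.67e-06). It was 387-fold below endoderm (106 to 3205) and 117-fold below mesoderm (31.7 to 980.1). The fitted log2 value against hPSC, which is no bound, was -6.33, and it was -8.39 without ectoderm repeat 1, -5.40 without ectoderm repeat 2 and -4.97 with the length correction. Without ectoderm repeat 1 or 2 the fitted value was -11.20 or -8.22 against endoderm (-9.06 with both) and -8.90 or -5.91 against mesoderm (-6.77 with both). Endoderm was above hPSC by 2.73 ± 0.37 on the log2 scale (adjusted p = 6.79e-05) and above mesoderm by 2.30 ± 0.36 (0.000122). Mesoderm was not called against hPSC (0.44 ± 0.38, adjusted p = 0.387), and with the length correction it was (1.52, adjusted p = 0.00318), while the difference of endoderm from mesoderm became 1.10.

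S100A10 and ANXA2 did not keep 1 ratio of reads. S100A10 had 33.3 and 37.0 reads per 100 ANXA2 reads in hPSC and 25 and 32.4 in endoderm, but 8.88 and 7.18 in mesoderm and 2.08 and 0 in ectoderm. The hPSC and endoderm libraries lay together although ANXA2 itself differed several-fold between them, and mesoderm, whose ANXA2 levels overlapped those of endoderm, had less S100A10. For a test, the log2 ratio was taken with 0.5 reads added to both. It differed between groups in an exact permutation test (exact permutation p = 0.00952, the smallest this design allows). The test ran over the 105 ways to split 8 libraries into 4 pairs. This p-value is not adjusted, since the second ratio tested, S100A11 to ANXA1, is set by the added 0.5 in hPSC and endoderm. The group means of the S100A10 to ANXA2 ratio differed by up to 4.67 log2 units, between hPSC and ectoderm. With ectoderm repeat 1 or 2 left out they differed by 5.56 or 3.77. The ratio of ectoderm repeat 2, which had 0 S100A10 reads, is set by the added 0.5, so 5.56 rests on it wholly and 4.67 in part, and neither is a bound. A ratio within a library is not changed by scaling between libraries, but S100A10 transcripts are shorter (683 nt against a mean of 1682 nt for ANXA2) and libraries differed in the length of what they read.

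**Figure D3:**
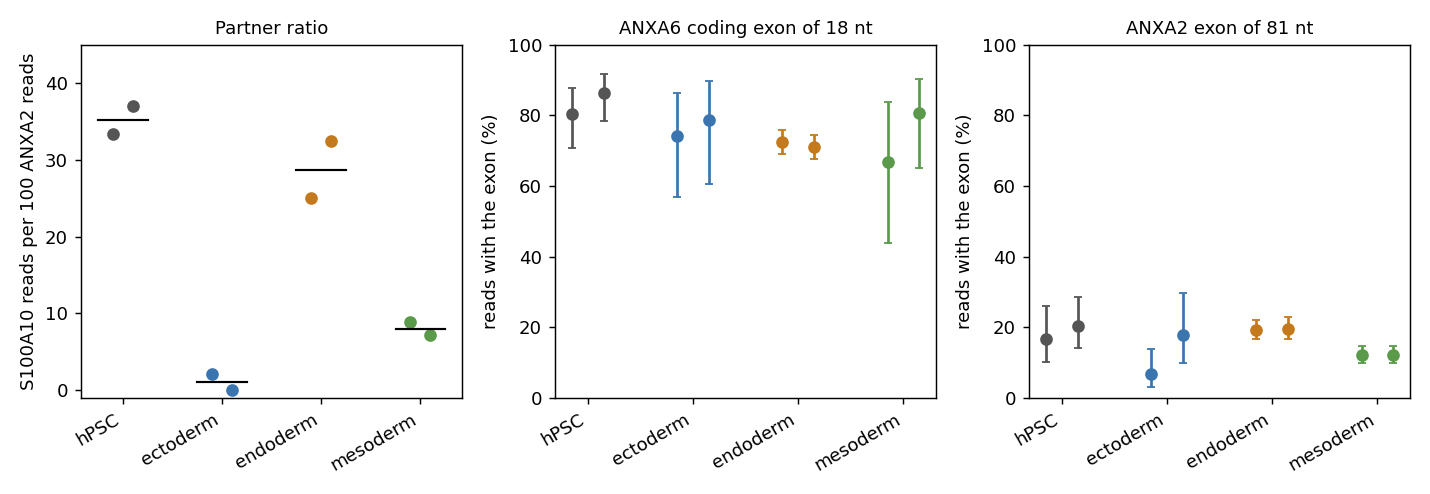
Left, S100A10 reads per 100 ANXA2 reads in each library, with the group mean as a bar. Middle and right, percent of reads counted for transcripts with the ANXA6 coding exon of 18 nt and the ANXA2 exon of 81 nt. Their error bars are 95% Wilson intervals. The ratio separates ectoderm and mesoderm from hPSC and endoderm. The ANXA2 exon intervals of endoderm lie above those of mesoderm, while both ectoderm intervals are wide.

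ANXA1 and S100A11 are the second pair, known from early endosomes and from the cornified layer of skin. ANXA1 (ENSG00000135046.14, chr9:73151855-73170393) had nearly all its reads in mesoderm, with 265 and 292 there, 0 in the 4 hPSC and endoderm libraries, and 4 in each ectoderm library. Its level was 499 and 579.5 CPM in mesoderm, and 3.39 and 4.14 in ectoderm, close to the 2.54 and 3.10 CPM that a count of 0 allowed there. Mesoderm was at least 194-fold above hPSC and at least 210.2-fold above endoderm, both computed against a floor of 3 reads over the group. Ectoderm stood at -7.28 ± 0.43 on the log2 scale against mesoderm. These 3 differences are a description, since the gene passed the filter only through mesoderm. The 8 ectoderm reads put that layer at least 1.34-fold above hPSC (edgeR adjusted p = 0.0493), a call lost in 7 of 16 alternative settings, among them DESeq2 (adjusted p = 0.123), the replicate block (0.0555) and each setting without 1 of the hPSC or ectoderm libraries (0.0647 to 0.176).

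S100A11 (ENSG00000163191.6, chr1:152032506-152037004, minus strand) was present in every library. It was at 96.3 and 117 CPM in hPSC, at 45.7 and 43.4 in ectoderm, at 374 and 314 in endoderm and at 571 and 411 in mesoderm. The order of mean CPM from ectoderm through hPSC to endoderm and mesoderm was the same as that of ANXA2 and ANXA11. It fell by 1.70 ± 0.34 in ectoderm (adjusted p = 0.000934) and rose by 2.00 ± 0.33 in endoderm (0.000354) and by 1.94 ± 0.32 in mesoderm (0.000308). Endoderm and mesoderm were not called different (0.05 ± 0.30 for endoderm against mesoderm, adjusted p = 0.896), although both mesoderm libraries had the higher CPM, and with library totals the value was -0.51 (adjusted p = 0.111). With the length correction the ectoderm difference was -0.23 and lost its call (adjusted p = 0.590), the mesoderm difference from hPSC was 3.13, and endoderm stood at a called -1.25 against mesoderm (adjusted p = 0.00228).

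S100A11 was read in hPSC and endoderm where its partner ANXA1 had 0 reads, and in ectoderm at 1350 and 1050 reads per 100 ANXA1 reads. In mesoderm it had 114 and 70.9 reads per 100 ANXA1 reads. With 0 ANXA1 reads in hPSC and endoderm, this ratio has no value there. S100A10 and S100A11 lie 38646 nt apart on chromosome 1, and in mesoderm S100A11 was called above hPSC and S100A10 was not. With the length correction both were called, S100A10 at 1.52 (edgeR adjusted p = 0.00318) and S100A11 at 3.13 (1.94e-06). The difference between the changes of the 2 genes was not tested.

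ANXA6 is the annexin with a doubled core, known from late endosomes, cholesterol handling and caveolae. Its highest level was in endoderm. ANXA6 (ENSG00000197043.15, chr5:151091194-151157815 as assembled, minus strand) was at 158 and 183 CPM in hPSC, at 26.3 and 28.9 in ectoderm, at 1161 and 1172 in endoderm and at 33.9 and 71.5 in mesoderm. Both endoderm libraries stood far above the rest, and the 4 groups did not overlap. It rose by 3.09 ± 0.35 on the log2 scale in endoderm (adjusted p = 1.41e-05), and was lower than hPSC in ectoderm (-3.07 ± 0.38, 2.34e-05) and mesoderm (-1.95 ± 0.38, 0.00106). Endoderm was above mesoderm by 5.04 ± 0.40 (2.73e-07), and by 5.67 without mesoderm repeat 2. Ectoderm was called below mesoderm (-1.11 ± 0.41, adjusted p = 0.0431), from 59 against 54 reads, and that call was lost in 11 of 16 alternative settings. Without mesoderm repeat 2 the difference was -0.43 (adjusted p = 0.545).

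ANXA6 has a known alternative coding exon of 18 nt, or 6 codons, at chr5:151110627-151110644. It is printed because the assembly holds ANXA6 transcripts with and without it. Shares of reads with an exon are shares of the reads counted for the assembled transcripts that include it. The sequence is from the GENCODE 29 transcript ENST00000354546, in the direction of transcription, with 30 nt on each side and the exon in capitals.
ANXA6 exon included: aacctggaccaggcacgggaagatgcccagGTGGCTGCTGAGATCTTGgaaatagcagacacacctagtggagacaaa
ANXA6 exon skipped: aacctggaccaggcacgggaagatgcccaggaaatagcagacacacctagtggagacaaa
The exon was in 80.5% and 86.4% of ANXA6 reads in hPSC, 74.2% and 78.6% in ectoderm, 66.7% and 80.6% in mesoderm and 72.5% and 71.0% in endoderm. Mesoderm repeat 1 had only 18 ANXA6 reads, with a 95% Wilson interval of 43.7% to 83.7%. The exon was included in most reads of every library, and mesoderm covered most of the range of the other groups. A difference between groups was not called (exact permutation p = 0.324 before adjustment). The form with the exon was the main one at every level of the gene, from 18 to 687 reads per library.

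ANXA5, which binds phosphatidylserine and is used as a stain for dying cells, had reads in every library. ANXA5 (chr4:121667946-121696992) was at 369.7 and 573 CPM in hPSC, at 279 and 181 in ectoderm, at 903 and 798 in endoderm and at 731 and 796 in mesoderm. The groups did not overlap, but the hPSC repeats lay far apart. It fell by 1.5 ± 0.35 in ectoderm (edgeR adjusted p = 0.00275) and rose by 1.14 ± 0.35 in endoderm (0.0230), and was not called in mesoderm (0.42 ± 0.34, adjusted p = 0.366). The ectoderm call was lost with the length correction (-0.42, adjusted p = 0.300) and without ectoderm repeat 2 (-1.04, 0.0751), and it was -0.88 without hPSC repeat 2. The endoderm call was lost without endoderm repeat 1 (0.0780) or repeat 2 (0.0609). Mesoderm was called with the length correction (0.91, 0.0322) and without hPSC repeat 2 (0.96, 0.00893).

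ANXA3 and ANXA4 were, like ANXA1, highest in mesoderm. ANXA3 (chr4:78551747-78610447), on the same chromosome as ANXA5, was at 28.9 and 26.7 CPM in hPSC, at 15.2 and 28.9 in ectoderm, at 41.0 and 15.4 in endoderm and at 512 and 603 in mesoderm. Its 3 lower groups overlapped, and mesoderm stood apart from them. It rose by 4.08 ± 0.42 on the log2 scale in mesoderm against hPSC (adjusted p = 3.21e-06), and was not called in ectoderm (-0.77 ± 0.47, 0.182) or endoderm (0.34 ± 0.48, 0.642). Endoderm stood at -3.74 ± 0.41 against mesoderm (6.09e-06), and at -4.54 without endoderm repeat 1. Ectoderm against endoderm was called at -1.12 ± 0.46 (0.0450) with overlapping libraries, and the call was lost in 8 of 16 settings, with -0.01 under the length correction and -0.24 without endoderm repeat 1.

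ANXA4, known from epithelia and from membrane repair, had the fewest reads, 157 in all. ANXA4 (chr2:69643805-69826799 as assembled) was at 23.1 and 19.6 CPM in hPSC, at 17.8 and 22.7 in ectoderm, at 8.54 and 17.1 in endoderm and at 75.3 and 71.5 in mesoderm. The mesoderm libraries stood well above the other 6, which lay between 8.54 and 23.1 CPM. It rose by 1.55 ± 0.38 in mesoderm (edgeR adjusted p = 0.00577, DESeq2 0.0577), and was not called in ectoderm (-0.50 ± 0.42, 0.337) or endoderm (-0.39 ± 0.49, 0.604). Endoderm stood at -1.94 ± 0.42 against mesoderm (0.00156), and at -2.53 without endoderm repeat 2. Ectoderm stood at -2.05 ± 0.35 (0.000335), and at -2.74 when only reference transcripts were counted.

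ANXA7 and ANXA11 are the annexins with long, proline-rich N-terminal tails, whose ligands include the calcium sensors sorcin and ALG-2, and both genes lie on chromosome 10. ANXA7 (chr10:73375099-73414058) was at 146 and 194 CPM in hPSC, at 164 and 120 in ectoderm, at 147 and 135 in endoderm and at 190.2 and 149 in mesoderm. These ranges overlapped in all comparisons except endoderm against mesoderm. None of its 6 comparisons was called, with log2 fold changes from -0.74 ± 0.33 (ectoderm against endoderm, edgeR adjusted p = 0.0572) to 0.30 ± 0.33 (endoderm against mesoderm, 0.473). The latter is opposite in sign to the CPM, which were higher in mesoderm, and with library totals it was -0.27, while ectoderm against endoderm was at 0.02. Ectoderm was called below hPSC without hPSC repeat 1 (-1.05, 0.00136) and below endoderm without hPSC repeat 1 (-0.76, 0.00395) or repeat 2 (-0.68, 0.0104).

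ANXA11 (chr10:80150889-80205572), which links RNA granules to lysosomes, followed ANXA2 rather than ANXA7 in its order of levels. It was at 94.4 and 33.8 CPM in hPSC, at 33.9 and 26.9 in ectoderm, at 208 and 217 in endoderm and at 235 and 280 in mesoderm. Endoderm and mesoderm stood above the other 4 libraries, and hPSC repeat 2 lay within the ectoderm range. It rose by 2.12 ± 0.36 in endoderm (edgeR adjusted p = 0.000554) and 1.82 ± 0.36 in mesoderm (0.00126), values of 2.82 and 2.51 without hPSC repeat 1. It fell by 1.44 ± 0.39 in ectoderm (0.00680), a call lost without hPSC repeat 1 (-0.75, 0.151) or ectoderm repeat 2 (-1.14, 0.109) and with library totals (-1.06, 0.0530). Under the length correction the ectoderm difference was -2.30 (0.000293). Endoderm against mesoderm was at 0.29 (not called) and, with the length correction, at a called 0.93 (0.0266), but both mesoderm libraries had the higher CPM and with library totals the value was -0.28.

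Transcript length entered these comparisons because the libraries differed in it and the genes do too. S100A11 transcripts were 563 nt and S100A10 transcripts 683 nt, shorter than all but 0.729% and 1.29% of the genes tested, and ANXA1, ANXA5, ANXA3 and ANXA2 averaged 1411 to 1682 nt. ANXA11 averaged 6728 nt, longer than 83.6% of the genes tested. When the trend of fold change with length was removed in each library, the ectoderm differences of the short genes moved toward higher values and that of ANXA11 toward a lower one. Against endoderm, ectoderm was then at -2.11 for S100A11, -3.74 for ANXA2, -1.53 for ANXA5, -7.59 for S100A10 and -4.64 for ANXA11, and all 5 were still called, while the median of all genes moved from 0.19 to -0.01. Against mesoderm, ectoderm was at -3.76 for ANXA2, -4.24 for ANXA3 and -1.33 for ANXA5, all called. The correction assumes that most genes of a given length did not change, and what the trend with length comes from was not tested.

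**Figure D4:**
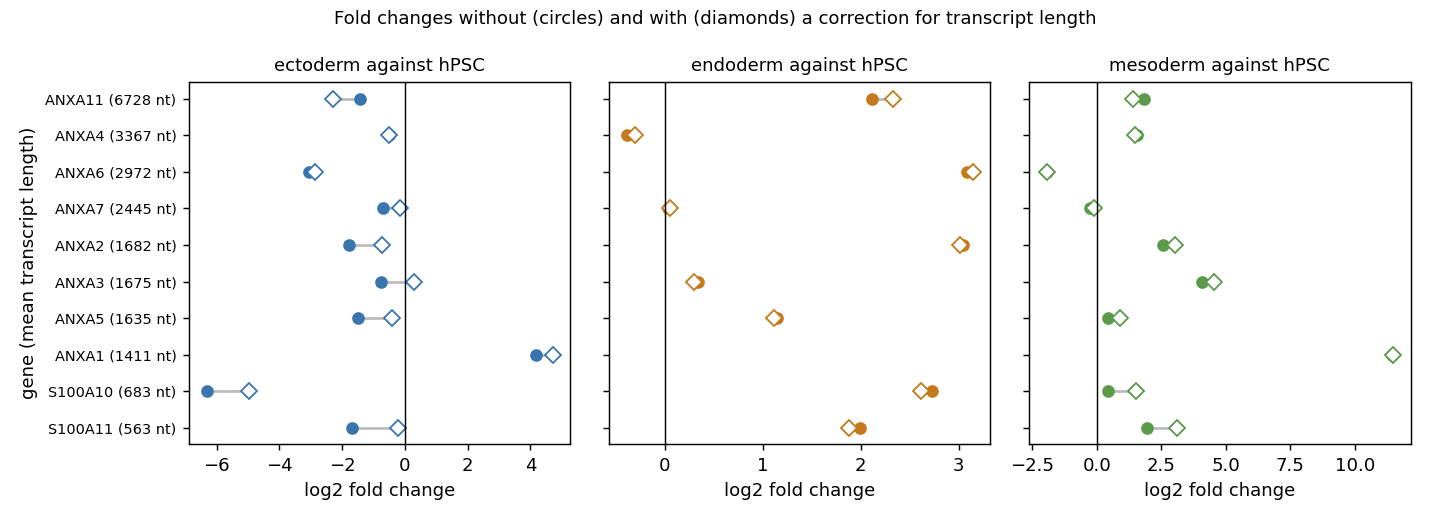
Fitted log2 fold change against hPSC of each gene without (circles) and with (diamonds) the length correction, in 3 panels for ectoderm, endoderm and mesoderm (each with its own horizontal scale), genes ordered by mean transcript length. In ectoderm the diamonds of S100A11, ANXA5, ANXA2 and S100A10 lie right of their circles and that of ANXA11 lies left, and in endoderm the symbols nearly coincide.

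The long reads also gave the transcript forms. ANXA1, ANXA7, S100A10 and S100A11 were each assembled as 1 transcript, of 13, 13, 3 and 3 exons, and the main ANXA5 transcript took 99.7% of its reads. ANXA2 had 8 transcripts, of which the 13-exon form (ENST00000451270.7) took 79.1% of reads and the 14-exon form (ENST00000421017.6), with an extra 81-nt exon in the 5′ UTR at chr15:60397258-60397338, took 15.2%. That exon was in 16.7% and 20.5% of informative ANXA2 reads in hPSC, 6.67% and 17.9% in ectoderm, 12.2% and 12.1% in mesoderm and 19.2% and 19.6% in endoderm. The pairs of endoderm and mesoderm values did not overlap, and the 2 ectoderm values spanned most of the range.

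Whether groups chose transcripts differently was tested with diffSpliceDGE in the 4 genes with at least 2 transcripts past the filter, ANXA2, ANXA3, ANXA6 and ANXA11. Of 24 tests, the choice of ANXA2 transcripts between endoderm and mesoderm was called (adjusted p = 0.0305), where 9.94% of all 2606 genes tested were called in that comparison. In the other 5 comparisons 0 of the 4 genes were called, where the share of all genes called was 5.76%, 5.03% and 7.06% for ectoderm, endoderm and mesoderm against hPSC, 14.8% for ectoderm against endoderm and 6.02% for ectoderm against mesoderm. The ANXA2 call was lost with the replicate block (0.0624), with transcripts of at least 10 reads (0.0884) and without any 1 of the ectoderm, endoderm or mesoderm libraries (0.0750 to 0.464), and it was kept without hPSC repeat 1 (0.00312) or repeat 2 (0.00268). ANXA2 was also called for ectoderm against endoderm without hPSC repeat 1 (0.000638) or repeat 2 (0.000544), without ectoderm repeat 1 (0.0328) or mesoderm repeat 1 (0.0178), and with transcripts of at least 10 reads (0.0114). For ectoderm against mesoderm it was called without hPSC repeat 1 (0.00249) or repeat 2 (0.00223) and without endoderm repeat 1 (0.0434) or repeat 2 (0.0386). In the exact permutation test of 7 transcript and exon shares over libraries, 0 were called and 0 had an unadjusted p at or under 0.05. Among the 7, the shares of the main ANXA11 transcript and of the ANXA11 exon of 49 nt are the same reads, 1 measurement counted as 2. The p-values ran from 0.171 to 0.905, all at 0.633 or more after adjustment, where the smallest possible was 0.00952. The ANXA11 exon of 49 nt in the UTR at chr10:80176107-80176155 was in 42.3% to 73.7% of ANXA11 reads, with both ends of the range in libraries of 26 and 19 reads.

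A longer ANXA3 transcript of 2875 nt, which matches no reference transcript, had 0 and 1 reads in hPSC, 5 and 9 in ectoderm, 41 and 48 in mesoderm and 2 and 0 in endoderm. It made up 15.1% and 15.8% of ANXA3 reads in mesoderm and 27.8% and 32.1% in ectoderm, the latter from 18 and 28 reads. ANXA4 transcripts that start at an upstream first exon, from base 69643805 of chromosome 2 inside the gene AAK1 on the other strand, took 28.7% of its 157 reads. Of these, 30 and 4 reads were of transcripts ending at bases 69658219 and 69724117, before the main ANXA4 transcript starts at 69741898. Only 11 reads were of a transcript that runs on to base 69825783. The transcript ending at 69658219 made up 38.1% and 40.9% of ANXA4 reads in ectoderm. All these reads are counted in the ANXA4 levels above. The shares of the longer ANXA3 transcript and of the ANXA4 upstream start were not tested over libraries, since each gene had a library under 10 reads. In ANXA6, 753 of 1665 reads (45.2%) were counted for assembled transcripts with a last exon of 20 nt at chr5:151091194-151091213. This last exon lies inside the neighbouring gene TNIP1 and in no GENCODE 29 exon. It lies 9891 nt beyond base 151101105, where 1 GENCODE 29 transcript of ANXA6 ends, and its share was 28.6% to 54.4% in the 8 libraries. This last exon was looked at after its values were seen.

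Promoter sequences from RefSeq (GRCh38.p14, 250 bases before to 50 after the start) matched all 10 genes. ANXA1 was unlike the other 9. Its promoter had 37.7% G+C and 0 CG dinucleotides, where the others had 64.7% to 76.3% G+C and at least 22 CG dinucleotides, and the median of 35116 promoters was 58.7% and 14. It is printed because ANXA1 was also the gene with 0 reads in hPSC and endoderm, beside those of ANXA2 and S100A11, which had reads in every library. Only the part before any annotated or assembled exon is shown, in the direction of transcription, with motif matches in capitals.
ANXA1 promoter, chr9:73151615-73151756, plus strand: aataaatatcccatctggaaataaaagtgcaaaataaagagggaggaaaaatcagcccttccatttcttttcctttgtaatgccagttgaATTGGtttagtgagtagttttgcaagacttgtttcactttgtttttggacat
ANXA2 promoter, chr15:60398078-60398236, minus strand: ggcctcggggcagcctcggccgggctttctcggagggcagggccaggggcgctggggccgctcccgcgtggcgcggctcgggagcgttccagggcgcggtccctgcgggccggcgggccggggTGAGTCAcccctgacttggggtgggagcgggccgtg
S100A11 promoter, chr1:152037036-152037254, minus strand: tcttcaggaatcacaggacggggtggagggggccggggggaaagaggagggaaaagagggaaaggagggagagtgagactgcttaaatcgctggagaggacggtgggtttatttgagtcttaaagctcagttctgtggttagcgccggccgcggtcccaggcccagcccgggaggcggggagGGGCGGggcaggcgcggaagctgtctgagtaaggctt
The capitals mark a CCAAT box (as ATTGG) in ANXA1, an AP-1 motif (TGANTCA) in ANXA2 and a GC box (GGGCGG) in S100A11. On either strand, 34.6%, 7.71% and 45% of the 35116 promoters hold these letters. Of the 10 promoters, that of ANXA2 alone had the AP-1 letters, ANXA7 alone had the GATA letters AGATAA (10.3% of all promoters), and none had the TEAD letters GGAATG (14%). The TATA box letters TATAAA (11.5%) were in the ANXA1 and ANXA2 promoters, outside the stretches shown. The motifs searched do not overlap one another in the 3 printed stretches. A match describes letters and is not a binding site.

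Other annexins and S100 genes added little to the reads. Of 7 further genes listed by annexin names, among them the receptor gene ANXA2R and the pseudogene ANXA2P2, 5 had reads. ANXA9 passed the filter, only through mesoderm, with 0 and 5 reads in hPSC, 2 and 1 in ectoderm, 0 in endoderm and 10 and 16 in mesoderm. ANXA10 and ANXA13 had 0 reads. ANXA2P2, a near copy of ANXA2, had 4 reads. Of 17 further S100 genes, 7 had reads and 3 passed the filter, and S100A4 and S100A6 had 14 and 10 reads in all.

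The 3 S100 genes tested were S100A13, S100A14 and S100A16, and the first 2 passed the filter only through endoderm, so their levels are a description. S100A16 was at 15.4 and 19.6 CPM in hPSC, at 2.54 and 3.10 in ectoderm, at 178 and 164 in endoderm and at 82.8 and 77.4 in mesoderm. It fell by 2.99 ± 0.55 in ectoderm (adjusted p = 0.000480) and rose by 3.60 ± 0.36 in endoderm (4.02e-06) and 1.94 ± 0.38 in mesoderm (0.00107). S100A13 was at 54.6 and 40.9 CPM in endoderm and at 15.1 or less elsewhere. S100A14 was at 30.7 and 51.2 CPM in endoderm and at 5.65 or less elsewhere.

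Of 17 genes listed as ligands of annexins or of their complexes, 9 were tested. In ectoderm 3 were higher and 4 lower than hPSC, in endoderm 2 and 2, and in mesoderm 4 and 1. Of all genes tested, 23.8% were called higher and 24.8% lower in ectoderm, and these shares were 16.9% and 18.2% in mesoderm and 13.4% and 13.8% in endoderm. Their median log2 fold changes were -0.80, -0.22 and 0.93. AHNAK, a giant scaffold protein that binds the ANXA2 and S100A10 complex, was higher in all 3 layers. Its pooled level was 10.2-fold (3.34 to 51.0) above hPSC in ectoderm, 27.4-fold (9.07 to 135) in endoderm and 49.5-fold (16.6 to 243) in mesoderm, from 3 hPSC reads. MYOF, a ferlin of membrane repair, rose by 2.39 ± 0.55 in endoderm (adjusted p = 0.00470) and 4.46 ± 0.47 in mesoderm (3.96e-06), and was at -0.80 ± 0.69 in ectoderm (0.346). PDCD6, which encodes ALG-2, fell by 1.03 ± 0.32 in ectoderm (0.0145), and SRI, which encodes sorcin, fell there (-0.95 ± 0.30, 0.0160) and in endoderm (-1.21 ± 0.32, 0.0111).

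The remaining ligand genes were mixed. PDCD6IP, which encodes ALIX, rose in ectoderm (1.08 ± 0.32, adjusted p = 0.0106) and mesoderm (0.93 ± 0.33, 0.0377), as did RASA1, a Ras GTPase activator (2.28 ± 0.58, 0.00456, and 1.89 ± 0.64, 0.0313). The plasminogen activator gene PLAU fell in ectoderm (-1.5 ± 0.33, 0.00163) and mesoderm (-1.01 ± 0.34, 0.0305). PLAT, the other activator, fell in ectoderm (-1.56 ± 0.51, 0.0179) and in endoderm, where 3 reads against 18 in hPSC made it 6.50-fold lower (1.90 to 34.5). PLG and the ANXA1 receptor genes FPR1 and FPR2 had 0 reads.

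Of 12 membrane repair and fusion genes, 11 were tested. In mesoderm 7 were higher than hPSC and 0 lower, in ectoderm 2 were higher and 5 lower, and in endoderm 2 were higher and 3 lower. The shares of all genes tested were 16.9% higher and 18.2% lower in mesoderm, 23.8% and 24.8% for ectoderm, and 13.4% and 13.8% in endoderm. CAV1, among the 7, passed the filter only through mesoderm. Their median log2 fold change was 1.18 in mesoderm, -0.88 in ectoderm and -0.24 in endoderm. CAPN2, a calpain protease, was at 44.3 and 10.7 CPM in hPSC and 1521 and 1481 in mesoderm, a rise of 5.59 ± 0.46 (adjusted p = 3.70e-07). Its relative CAPN1 fell by 2.24 ± 0.32 in ectoderm (7.19e-05), rose by 1.55 ± 0.31 in endoderm (0.00166), and was not called in mesoderm (-0.81 ± 0.31, 0.0513). EHD2, a caveolar ATPase, fell by 1.61 ± 0.32 in ectoderm (0.000852) and rose by 1.68 ± 0.30 in endoderm (0.000826) and 0.90 ± 0.30 in mesoderm (0.0313).

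The other genes of that list that passed the test in mesoderm were CAV1 (1.46 ± 0.48) and CAVIN1 (1.68 ± 0.46) of caveolae, VPS4B of the ESCRT machinery (1.18 ± 0.33), the lipid scramblase ANO6 (1.76 ± 0.38) and the vesicle calcium sensor SYT7 (1.88 ± 0.51). In ectoderm VPS4B (1.26 ± 0.32) and ANO6 (1.04 ± 0.38) rose, and CAV1 (-2.65 ± 0.68), the calpain subunit CAPNS1 (-2.92 ± 0.53) and the actin linker EZR (-1.35 ± 0.31) fell. In endoderm VPS4B fell by 1.32 ± 0.44, CAVIN1 was 13-fold lower (3.23 to 114) from 2 reads, and SYT7 had 0 reads and was at least 3.25-fold lower.

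The tested gene with the pattern most like that of each of the 10 genes over the 8 libraries was found among 7925 genes of at least 20 CPM on average, by the root mean square difference of log2 CPM (1 CPM added) after centring each gene. For ANXA2 it was KRT8 (0.25), a keratin of simple epithelia, with 349 and 587 CPM in hPSC, 191 and 131 in ectoderm, 3451 and 4013 in mesoderm and 3615 and 3942 in endoderm. For S100A11 it was SPARC (0.24), a matrix protein, for ANXA5 GRN (0.18), and for ANXA6 ADM (0.43), the adrenomedullin gene. For ANXA3 it was KCNMA1 (0.37), for ANXA7 HINFP (0.11), and for ANXA11 HDHD3 (0.28). The nearest genes lay farther for ANXA1 (KANK4, 0.74, with 181 and 175 CPM in mesoderm and 3.39 or less elsewhere) and for S100A10 (KIAA0040, 0.90).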

How the data were processed

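Per assembled transcript, the authors deposited whole counts of reads without normalization. The 2 endoderm columns the authors deposited are recorded under expected counts, but they hold whole raw counts and nothing was rounded. Reads were aligned with minimap2 and assembled with StringTie, per the submitters' processing notes, on GRCh38. Versions, the counter, its use of strand, its treatment of near-identical copies such as ANXA2 pseudogenes, and the annotation release are not given in the sources used here. Short-read libraries were not analysed here.

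Transcripts were summed by assigned gene, and 3 intronic ANXA4 transcripts with 37 reads were left out. Gene counts entered edgeR 4.0.16 (R 4.3.3): TMM normalization, filterByExpr by group (minimum count 10), 1 quasi-likelihood fit over all 8 libraries, two-sided tests of 6 contrasts without a term for the repeat number, and Benjamini-Hochberg adjustment over 10843 genes at 0.05. Folds against a group at 0 are bounds against 3 reads over the group, and groups with 1 to 3 reads have a pooled CPM ratio with a 95% exact conditional binomial interval. Transcript choice used diffSpliceDGE, and shares and ratios an exact permutation test of F. The length correction removed a loess trend (span 0.5) of log fold on mean transcript length. Other alternatives were DESeq2 1.42.0 (test, and its size factors), genes with at least 1 read, a replicate block, reference transcripts only, and leaving out each library; adding transcripts listed by position and library totals in place of TMM were chosen after the data were seen. On simulated data with 200 of 10843 genes changed 4-fold, the test against hPSC recovered 79% (ectoderm), 69% (endoderm) and 70.6% (mesoderm), with 6.34%, 4.38% and 5.80% of calls false. In the data 27.2% to 48.7% of genes were called against hPSC. The simulation gave all groups the same spread, but hPSC repeats differed more (chi-square per degree of freedom 7.63 against 1.59 to 2.19 in the layers). These rates therefore need not hold for the data.

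The 10 genes, the 4 lists of other genes, the marker lists and the tests were chosen with earlier results of these data known. Named genes are all 10, listed genes called in a layer against hPSC, and for each of the 10 the single most similar gene, except that the one for ANXA4 is not reported here; listed genes at 0 or very few reads were named after their values were seen. Marker lists for endothelial cells (45.6 to 239 CPM) and neural crest (20.5 to 180 CPM) were also read.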

Additional observations from a re-analysis of the deposited data

Results flagged for a closer look

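Several genes changed in opposite directions or to different extents in different layers, and in each case below the difference between the layers was itself called by edgeR (adjusted p from 2.77e-08 to 1.87e-05), with the libraries of the 2 layers not overlapping. ANXA2, S100A11 and ANXA11 fell in ectoderm and rose in both other layers. For ANXA2, ectoderm stood at -4.84 on the log2 scale against endoderm and -4.37 against mesoderm. For S100A11 these values were -3.70 and -3.65, and for ANXA11 -3.55 and -3.26. ANXA5 and S100A10 fell in ectoderm and rose in endoderm, with ectoderm at -2.64 and -9.06 against endoderm; the latter is a fitted value from 2 ectoderm reads. ANXA6 rose in endoderm and fell in both other layers, with ectoderm at -6.16 against endoderm and endoderm at 5.04 against mesoderm. The falls in ectoderm against hPSC are the less stable side. With the length correction those of ANXA2 (-0.73, adjusted p = 0.0682), S100A11 (-0.23, 0.590) and ANXA5 (-0.42, 0.300) were not called. That of ANXA11 was not called without hPSC repeat 1 (-0.75, 0.151), without ectoderm repeat 2 (-1.14, 0.109) or with library totals in place of TMM (-1.06, 0.0530), and that of ANXA5 was not called without ectoderm repeat 2 (-1.04, 0.0751). The rise of ANXA5 in endoderm was not called without endoderm repeat 1 (0.0780) or repeat 2 (0.0609).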

How the results depend on the processing

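Over 16 alternatives and 60 comparisons of a gene between groups, 886 of 960 recomputed log2 fold changes kept their direction (or stayed at 0) and side of the threshold, 36 lost their call, 15 gained one and 23 changed sign. All 23 were uncalled with all libraries and TMM, and 1 was called after the change: S100A11 in endoderm against mesoderm, at -1.25 with the length correction. With library totals in place of TMM the endoderm against mesoderm values were -0.10 for ANXA2, -0.27 for ANXA7, -0.28 for ANXA11 and -0.51 for S100A11, ANXA7 was at -0.27 in endoderm against hPSC, and ectoderm against endoderm was at 0.65 for ANXA4 and 0.016 for ANXA7. With the length correction ANXA3 was at 0.29 in ectoderm against hPSC and ANXA2 at -0.021 in endoderm against mesoderm. With transcripts added by position ANXA4 was at 0.063 in ectoderm and 0.17 in endoderm against hPSC. It was at 0.039 in ectoderm against endoderm among genes with at least 1 read, and S100A11 was at -0.040 in endoderm against mesoderm with reference transcripts only. Leaving out single libraries gave -0.40 to 0.94 for ANXA3, -0.93 to 0.13 for ANXA4 and -0.29 to 0.44 for ANXA7 in endoderm against hPSC, -0.0023 to 0.96 for ANXA5 and -0.61 to 0.13 for ANXA7 in mesoderm against hPSC, -0.50 to 0.56 for ANXA4 in ectoderm against endoderm and -0.16 to 0.31 for S100A11 in endoderm against mesoderm. Genes called with DESeq2 numbered 3354 of 10843 for ectoderm, 1831 for endoderm and 2315 for mesoderm against hPSC and 2010 for ectoderm against mesoderm, where edgeR called 5280, 2952, 3805 and 3848. Leaving out single libraries gave 3299 to 5932 genes called for ectoderm, 1458 to 4074 for endoderm and 2020 to 5084 for mesoderm against hPSC, 1784 to 5637 for ectoderm against mesoderm (main 3848) and 3388 to 6481 for endoderm against mesoderm (main 5107). The lowest counts were without ectoderm repeat 2, endoderm repeat 2, mesoderm repeat 2, mesoderm repeat 1 and endoderm repeat 2, and every fit without a library has fewer samples. It gave 4 to 7 of the 10 genes called for ectoderm against hPSC (4 without ectoderm repeat 2, 7 with all libraries), 0 to 3 calls of transcript choice (main 1), and largest differences between group means of the log2 ratio of 3.77 to 5.56 for S100A10 to ANXA2 (main 4.67) and 8.46 to 9.15 for S100A11 to ANXA1 (main 8.80, set by the added 0.5 where ANXA1 had 0 reads). With the length correction 4 of the 10 genes were called for ectoderm against hPSC, where 3858 of all 10843 genes were called. The cause of these changes was not tested. The labels do not say whether libraries with the same repeat number share a batch. Repeat differences correlated at -0.03 to 0.14 between groups, below 0 in 4 of 6 pairs, which cannot settle it. With the replicate block, transcript choice was called in 0 tests rather than 1, and genes called went from 5280 to 5105 for ectoderm, 2952 to 2798 for endoderm and 3805 to 3613 for mesoderm against hPSC. Depth limits ANXA1 outside mesoderm, S100A10 in ectoderm, and transcript shares of ANXA3 and ANXA4.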
